A study of Mus musculus with 16 samples.

Results

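The antioxidant and glutathione defence genes described here are 34 of the 57010 genes in the deposited count tables. They were chosen by symbol as the rows for peroxiredoxins, superoxide dismutases and catalase, glutathione peroxidases, the enzymes that make and recycle glutathione, the thioredoxin system, the NRF2 regulators with their best known inducible enzymes, and glutathione S-transferases. Every symbol was found in both tables, and every member had enough reads to be tested in each comparison. The rule uses gene symbols only.

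Poly(A) RNA of mouse granulosa cells (mGCs), the supporting and hormone-producing cells of the follicle, was sequenced in 2 experiments with 16 libraries. In the first, mGCs were isolated from ICR mice after ovulation induction, with 1 mouse for each library. The paper's methods name PMSG or HCG for the induction. The Con group (n = 5) had sham surgery without an implant. The EM group (n = 5) carried endometrium from other mice sutured to the mesentery of the bowel, as a model of endometriosis. By the methods, mice given implants also received estradiol after surgery, with a washout before induction. In the second, mGCs from 6 mice of the EM model were kept for 24 h in DMEM/F12 medium holding 5% FBS. The EET group (n = 3) then received 100 nM 14,15-EET, an epoxide of arachidonic acid, for 24 h, and the PBS group (n = 3) received the same volume of PBS. Each cultured library therefore comes from the EM model, and there were no cultured cells of sham mice. The labels give no age, while the paper's methods start the model in 6-week-old mice. The labels also do not say how the 6 mice were divided over the cultured libraries. For the culture times, the steps above follow a figure legend of the paper. The labels name 24 h of culture for the PBS group and additional treatment for 24 h for the EET group. Whether both groups had the same total time in culture is not stated in the labels. The methods call the cultured replicates paired without saying that equal numbers mark a pair, so they were compared unpaired, with the pairing by number beside the result it moves. The p-values in culture measure only the spread between these libraries.

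Antioxidant defence works in steps. Superoxide dismutases turn superoxide into hydrogen peroxide, which catalase, the glutathione peroxidases and the peroxiredoxins reduce further. Glutathione reductase and thioredoxin reductases restore the spent thiols with NADPH. The transcription factor NRF2, encoded by Nfe2l2, is held back by KEAP1 and, when released, binds antioxidant response elements near genes such as Hmox1, Nqo1, Srxn1, Txnrd1, Gclc and Gclm. In the ovary, granulosa cells are exposed to oxidants around ovulation, and glutathione S-transferases there also act on products of steroid and lipid metabolism.

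Between 14229123 and 15999234 reads per library were counted on genes in the fresh mGCs and between 21384686 and 29482826 in the cultured mGCs. Mitochondrially encoded genes took 21.8% of the reads in library EM-mGC-3 and 6.76% to 11.1% in the other 9 fresh libraries. Summed red blood cell markers (6 genes) lay between 3556 and 5411 CPM (reads scaled to a common library total) in the Con group and between 2436 and 16016 CPM in the EM group, where EM-mGC-3 was highest. Summed neutrophil markers (6 genes) lay between 6.09 and 54.0 CPM in the Con group and between 38.8 and 168 CPM in the EM group, where EM-mGC-4 was highest. Summed stroma and fibroblast markers (6 genes) were lower in every EM library (420 to 992 CPM) than in any Con library (1061 to 1198 CPM), and endothelial markers (6 genes) were at 138 to 165 CPM in the Con group and 77.0 to 138 CPM in the EM group. These CPM values are TMM-scaled over all 16 libraries together, while fold changes come from the fit of each comparison alone. Fewer cells of a type and less RNA per cell cannot be told apart in these bulk libraries.

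The core of the antioxidant response element, searched as TGACNNNGC on both strands, was present in promoter windows of 7 of the 28 members with an entry (25.0%) and of 3781 of 27025 genes in all (14.0%). A window runs from 250 bases before to 50 bases after a RefSeq start site of the GRCm38.p6 assembly. The 7 members were Gclm, Mgst1, Nfe2l2, Prdx1, Sod1, Srxn1 and Txnrd1. Prdx6, Sod3, Gsr, Gclc, Hmox1 and Gsta4 had no entry. A match of letters is a description and does not show binding. The 4 windows printed below, 5′ to 3′ along the gene, belong to members whose levels in culture are described further on, with the match in capitals. It lies on the opposite strand in each of them.
Srxn1, chr2:152105274-152105573, plus strand: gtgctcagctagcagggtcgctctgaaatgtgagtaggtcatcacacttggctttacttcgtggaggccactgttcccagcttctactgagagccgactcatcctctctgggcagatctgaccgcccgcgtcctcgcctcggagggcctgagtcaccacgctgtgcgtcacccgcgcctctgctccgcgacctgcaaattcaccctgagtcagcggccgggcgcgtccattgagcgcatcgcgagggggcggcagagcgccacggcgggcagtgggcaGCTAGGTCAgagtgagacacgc
Txnrd1, chr10:82858956-82859255, plus strand: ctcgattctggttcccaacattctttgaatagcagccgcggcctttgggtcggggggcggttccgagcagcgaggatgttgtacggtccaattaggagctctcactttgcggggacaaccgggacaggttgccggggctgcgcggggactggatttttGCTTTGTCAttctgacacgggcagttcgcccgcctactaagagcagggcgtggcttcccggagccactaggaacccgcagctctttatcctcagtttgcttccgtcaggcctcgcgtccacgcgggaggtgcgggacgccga
Mgst1, chr6:138140277-138140576, plus strand: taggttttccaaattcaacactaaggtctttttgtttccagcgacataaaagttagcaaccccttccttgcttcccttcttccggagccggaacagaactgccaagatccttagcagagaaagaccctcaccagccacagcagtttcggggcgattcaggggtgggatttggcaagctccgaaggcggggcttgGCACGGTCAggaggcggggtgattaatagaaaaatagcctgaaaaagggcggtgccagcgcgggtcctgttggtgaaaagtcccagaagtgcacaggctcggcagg
Prdx1, chr4:116685349-116685648, plus strand: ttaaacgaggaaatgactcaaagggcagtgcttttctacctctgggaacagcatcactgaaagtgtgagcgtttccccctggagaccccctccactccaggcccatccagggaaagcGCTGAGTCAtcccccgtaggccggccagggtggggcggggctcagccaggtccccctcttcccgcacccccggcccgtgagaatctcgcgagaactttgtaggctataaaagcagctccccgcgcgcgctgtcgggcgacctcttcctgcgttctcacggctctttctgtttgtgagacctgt

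Levels of different genes were compared per kilobase of exon. The length merges the exons of all annotated transcripts of a gene, whether or not they are expressed here. The order of the members therefore depends on the annotation too. In the Con group the members spanned 2 orders of magnitude on this scale. The mu-class glutathione S-transferases were at the top, with Gstm1 at 215 ± 31.2 (SD, n = 5) and Gstm2 at 182 ± 11.0 CPM per kb. Prdx1 (136 ± 22.4), Gsta4 (131 ± 16.6), the secreted peroxidase gene Gpx3 (116 ± 39.4), the lipid peroxidase gene Gpx4 (111 ± 21.9) and Prdx3 (104 ± 11.0 CPM per kb) followed. Gss, for glutathione synthetase, and Gpx1 were lowest, at 2.68 ± 0.644 and 2.02 ± 0.500 CPM per kb. Both are overlapped by other annotated genes on the opposite strand, and how reads in such stretches were counted is not given. Most neighbours in this order were not separated, since the ranges of 30 of the 33 neighbouring pairs overlapped across the 5 libraries.

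**Figure D1:**
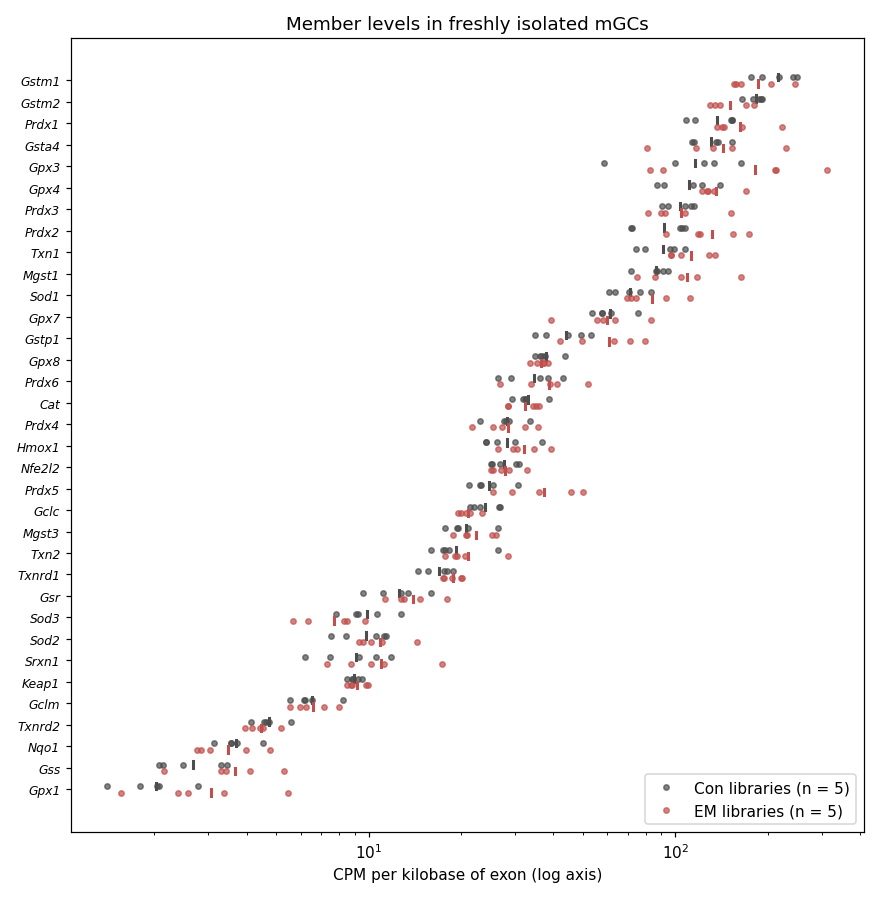
Level of each of the 34 members in CPM per kilobase of exon (log axis) in the 5 Con and 5 EM libraries, with points for libraries and short bars for group means. The members run from Gpx1 at the bottom (2.02 in the Con group) to Gstm1 at the top (215), and the Con and EM points overlap for every member.

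By role, the most abundant member in fresh Con cells was Prdx1 among the peroxiredoxins, Sod1 (70.9 ± 9.37 CPM per kb) among the dismutases and catalase, Gpx3 among the peroxidases, Gclc (24.0 ± 2.56) for glutathione synthesis, Txn1 (91.3 ± 13.8) in the thioredoxin system, Hmox1 (28.2 ± 5.31) among the NRF2 genes and Gstm1 among the transferases. Nqo1, a quinone reductase often used as a readout of NRF2, stood at only 3.70 ± 0.513 CPM per kb. Summed over the 34 members, the level was between 3403 and 4464 CPM in the Con group, between 3852 and 5101 CPM in the EM group, between 7806 and 8207 CPM in the PBS group and between 7777 and 8144 CPM in the EET group.

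The first comparison asks whether defence genes differ between mGCs of mice with and without ectopic endometrium. None was called. With edgeR's quasi-likelihood test and Benjamini-Hochberg adjustment over all genes, 0 of 34 members passed an adjusted p of 0.05, and 0 of the 17229 genes tested did (0%). Unadjusted p-values under 0.05 were found for 5 of 34 members, against 9.44% of all genes, and DESeq2 called 0 members and 110 genes in all (0.521% of those with an adjusted p). The log2 fold change was above 0 for 25 of 34 members against 48.2% of all genes. Its median was 0.14 over the members and -0.01 over all genes. The ranges of the Con and EM libraries overlapped for all 34 members, while they did not for 1.53% of genes.

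The smallest p belonged to Prdx5, a peroxiredoxin found in mitochondria, peroxisomes and cytosol. Its levels were 54.3, 49.8, 65.4, 49.4 and 45.3 CPM in Con-mGC-1 to Con-mGC-5 and 62.5, 54.2, 107, 97.3 and 76.8 CPM in EM-mGC-1 to EM-mGC-5. EM-mGC-3, EM-mGC-4 and EM-mGC-5 lay above every Con library and the other 2 inside the Con range. The log2 fold change was 0.59 (SE 0.18, edgeR adjusted p = 0.43). Trmt112 overlaps Prdx5 on the opposite strand and had a log2 fold change of 0.30 (edgeR adjusted p = 0.465). How reads in the overlap were counted is not given, and the part of Trmt112 in the Prdx5 values was not tested.

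Prdx2, the most abundant peroxiredoxin of red blood cells and also present in many other cells, was at 328, 316, 321, 220 and 218 CPM in the Con libraries and at 361, 283, 470, 528 and 366 CPM in the EM libraries. All EM libraries but EM-mGC-2 were above the highest Con library. The log2 fold change was 0.52 (SE 0.19, adjusted p = 0.465, edgeR). The red blood cell markers were highest in EM-mGC-3, second highest in Prdx2, and lowest in EM-mGC-2, lowest of the EM libraries in Prdx2. Other libraries were ordered differently. EM-mGC-4, highest in Prdx2, had 4454 CPM of these markers, less than EM-mGC-1, EM-mGC-3 and EM-mGC-5. Con-mGC-5 had the most of the Con libraries (5411 CPM) and the lowest Prdx2. On the opposite strand Junb and Rnaseh2a overlap Prdx2, and how reads there were counted is not given. Their log2 fold changes were 0.90 and 0.75 (edgeR adjusted p = 0.456 and 0.462). The part of red blood cells or of these overlapping genes in the Prdx2 values was not tested.

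Gstp1, the pi-class glutathione S-transferase, was at 82.2, 58.4, 76.4, 54.0 and 69.2 CPM in the Con group and at 110, 65.1, 123, 97.4 and 76.5 CPM in the EM group. EM-mGC-1, EM-mGC-3 and EM-mGC-4 lay above the Con range. Its log2 fold change was 0.47 (SE 0.18, adjusted p = 0.491, edgeR). Txn1, the cytosolic thioredoxin, was at 113, 101, 104, 78.2 and 83.8 CPM in the Con group and at 102, 110, 141, 135 and 101 CPM in the EM group, giving a log2 fold change of 0.30 (SE 0.13, adjusted p = 0.52). For this gene only EM-mGC-3 and EM-mGC-4 exceeded the Con libraries.

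Gstm2 went the other way among the 5 members with the smallest p. It was at 313, 276, 301, 322 and 318 CPM in the Con group and at 234, 284, 303, 226 and 218 CPM in the EM group, giving a log2 fold change of -0.28 (SE 0.12, adjusted p = 0.514, edgeR). EM-mGC-1, EM-mGC-4 and EM-mGC-5 lay below every Con library, and the other 2 inside their range.

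The NRF2 regulators were close to level between the groups. Nfe2l2 was at 102, 118, 114, 95.9 and 94.8 CPM in the Con group and at 109, 103, 96.7, 124 and 95.3 CPM in the EM group, with a log2 fold change of 0.01 and a 95% interval from -0.18 to 0.21. Keap1, its repressor, was at 39.9, 41.4, 43.2, 44.6 and 41.6 CPM against 46.6, 46.0, 40.0, 41.2 and 41.3 CPM, with a log2 fold change of 0.03 (interval -0.13 to 0.19). Changes of more than 1.2-fold in either direction lie outside both intervals.

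Inducible enzymes of the pathway overlapped as well. Hmox1, heme oxygenase 1, was at 42.2, 52.6, 64.2, 45.9 and 42.1 CPM in the Con group and at 53.3, 46.1, 60.6, 68.8 and 51.9 CPM in the EM group (log2 fold change 0.19, SE 0.14). Srxn1, the sulfiredoxin that repairs overoxidized peroxiredoxins, was at 26.2, 33.4, 29.8, 21.0 and 17.4 CPM against 24.8, 20.7, 31.6, 48.8 and 28.6 CPM, where EM-mGC-4 alone stood above the Con range (log2 fold change 0.28, SE 0.23). Nqo1 was at 7.04, 5.54, 4.86, 5.53 and 5.76 CPM against 4.42, 4.29, 7.40, 6.16 and 4.71 CPM (log2 fold change -0.09, SE 0.20). None of these 3 reached an unadjusted p of 0.05.

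The subunits of glutamate-cysteine ligase, which catalyse the first and limiting step of glutathione synthesis, gave no call either. The catalytic subunit gene Gclc was at 83.2, 101, 80.6, 86.8 and 100 CPM in the Con group and at 87.8, 80.8, 75.5, 77.9 and 73.9 CPM in the EM group (log2 fold change -0.19, SE 0.09, adjusted p = 0.54, edgeR). The modifier subunit gene Gclm was at 51.9, 39.0, 41.2, 34.9 and 38.6 CPM against 34.8, 44.9, 50.2, 37.5 and 39.4 CPM (log2 fold change 0.01, SE 0.13). For Gclc, 3 EM libraries were below the lowest Con library.

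The largest positive log2 fold change of a member, 0.66 (SE 0.36, adjusted p = 0.577, edgeR), was that of Gpx3, whose 5 EM libraries were spread from 149 to 567 CPM around a median of 384 CPM, against 106 to 297 CPM in the Con group. The most negative, -0.36 (SE 0.17, adjusted p = 0.53), was that of Sod3, the extracellular superoxide dismutase, with 29.2 to 47.5 CPM in the Con group and 21.2 to 36.3 CPM in the EM group. The stroma and fibroblast markers were lower in the EM group as well, and their part in the value of Sod3 was not tested. All 6 peroxiredoxins had a log2 fold change above 0, from 0.01 for Prdx3 and Prdx4 to 0.59 for Prdx5.

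Most of the highest values came from 2 EM libraries. EM-mGC-3, which was also highest in mitochondrial reads and red blood cell markers, had the highest level among the 10 fresh libraries for 13 of 34 members (38.2%, against 19.8% of all genes tested). These were Prdx1, Prdx3, Prdx5, Prdx6, Sod1, Sod2, Gpx1, Gpx4, Gsr, Txn1, Txn2, Nqo1 and Gstp1. EM-mGC-4, highest in neutrophil markers, was highest for 7 members (20.6% against 13.4%), namely Prdx2, Gpx3, Gss, Srxn1, Nfe2l2, Hmox1 and Mgst1. Without EM-mGC-3 the median log2 fold change over the members was 0.05. It was 0.08 without Con-mGC-5 and 0.21 without Con-mGC-1. The number of members with an unadjusted p under 0.05 was 5 without EM-mGC-3, 3 without Con-mGC-2, Con-mGC-4 or Con-mGC-5, 8 without Con-mGC-1 and 9 without EM-mGC-2. With mitochondrially encoded genes left out of the counts, 5 members had an unadjusted p under 0.05, against 9.33% of all genes. The median log2 fold change over the members was then 0.14. The part of red blood cells, neutrophils, stroma or endothelium in these values was not tested, nor was what goes with the mitochondrial share of EM-mGC-3.

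The second comparison asks what 14,15-EET did to the same genes in cultured mGCs of the EM model. Only Gstp1 was called, and it fell. This was 1 of 34 members, against 1.22% of the 15050 genes tested in either direction and 0.724% called lower. Unadjusted p-values under 0.05 were found for 4 members, against 12.4% of all genes. This count ran from 2 without EET-3 (against 8.07% of all genes) to 9 without PBS-2 (against 20.8%). With the replicate number as a block, 8 members had an unadjusted p under 0.05 (3 higher and 5 lower), against 16.3% of all genes, and Gstp1 remained the only member called. The PBS and EET libraries did not overlap for 3 members, against 16.6% of all genes, namely Gstp1 and Gpx7, which were lower with EET, and Txnrd2, which was higher. The median log2 fold change was 0.02 over the members and 0.00107 over all genes.

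Gstp1 (ENSMUSG00000060803, chromosome 19, 4085407 to 4087985, minus strand, in the deposited GRCm39 coordinates) was at 163, 169 and 189 CPM in PBS-1 to PBS-3 and at 144, 145 and 136 CPM in EET-1 to EET-3. Every EET library was below every PBS library. The log2 fold change was -0.29 (SE 0.05, edgeR adjusted p = 0.0236), a level 0.818 times that of the PBS group. Leaving out PBS-3, EET-1, EET-2 or EET-3 ended the call, at adjusted p-values of 0.0899, 0.0784, 0.110 and 0.185, and so did a joint fit of all 16 libraries. The nearby copy Gstp2 had at most 1.19 CPM in any cultured library, and the pseudogene Gstp-ps, at 10.9 to 12.4 CPM in the PBS group and 7.40 to 10.3 CPM in the EET group, had a log2 fold change of -0.38 (adjusted p = 0.196). Reads shared among these copies cannot be told apart in the table.

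Gpx7, a peroxidase of the endoplasmic reticulum, was at 44.9, 45.9 and 52.8 CPM in the PBS group and at 44.0, 42.4 and 38.0 CPM in the EET group. The groups did not overlap, although PBS-1 and EET-1 were close together. The log2 fold change was -0.21 (SE 0.07, adjusted p = 0.256, edgeR).

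Sod1, the cytosolic copper-zinc superoxide dismutase, was at 347, 282 and 330 CPM in the PBS group and at 303, 262 and 277 CPM in the EET group. PBS-2 lay among the EET libraries. The log2 fold change was -0.18 (SE 0.08, adjusted p = 0.352, edgeR), and Sod1 was called only without PBS-2 (adjusted p = 0.0397) and without the filter on low counts (adjusted p = 0.0386).

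Gstm1 and Txnrd2 had values above those of the PBS group. Gstm1 was at 671, 660 and 705 CPM with PBS and at 795, 733 and 704 CPM with EET, where EET-3 was just under PBS-3 (log2 fold change 0.14, SE 0.05, adjusted p = 0.324, edgeR). Txnrd2, the mitochondrial thioredoxin reductase, was at 26.2, 25.5 and 26.7 CPM against 28.5, 29.3 and 28.2 CPM (log2 fold change 0.14, SE 0.06, adjusted p = 0.406). For Txnrd2 every EET library was above every PBS library.

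The mRNA levels of Nfe2l2 and Keap1 differed little between the EET and PBS groups. Nfe2l2 was at 156, 166 and 158 CPM with PBS and at 166, 167 and 163 CPM with EET (log2 fold change 0.05, 95% interval -0.04 to 0.14). Keap1 was at 103, 92.4 and 95.1 CPM against 94.6, 87.4 and 88.0 CPM (log2 fold change -0.10, interval -0.22 to 0.01). Neither passed the test, and the intervals bound any change to less than 1.2-fold in either direction.

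Hmox1 was at 414, 324 and 327 CPM with PBS and at 322, 333 and 335 CPM with EET, so that PBS-1 alone stood above the EET libraries. Its log2 fold change was -0.10 (SE 0.09) and 0.03 without PBS-1. Srxn1 was at 127, 128 and 118 CPM against 122, 120 and 108 CPM (log2 fold change -0.09, SE 0.06).

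Nqo1 was at 11.4, 9.04 and 8.92 CPM with PBS and at 9.19, 11.1 and 10.2 CPM with EET, fully overlapping (log2 fold change 0.06, SE 0.13). Gclc was at 83.9, 83.9 and 83.7 CPM against 81.2, 90.1 and 83.7 CPM (log2 fold change 0.02, SE 0.05). Gclm was at 72.8, 74.4 and 67.9 CPM against 69.5, 76.6 and 74.6 CPM (log2 fold change 0.04, SE 0.06). The ranges of the EET and PBS libraries overlapped for each of them.

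**Figure D2:**
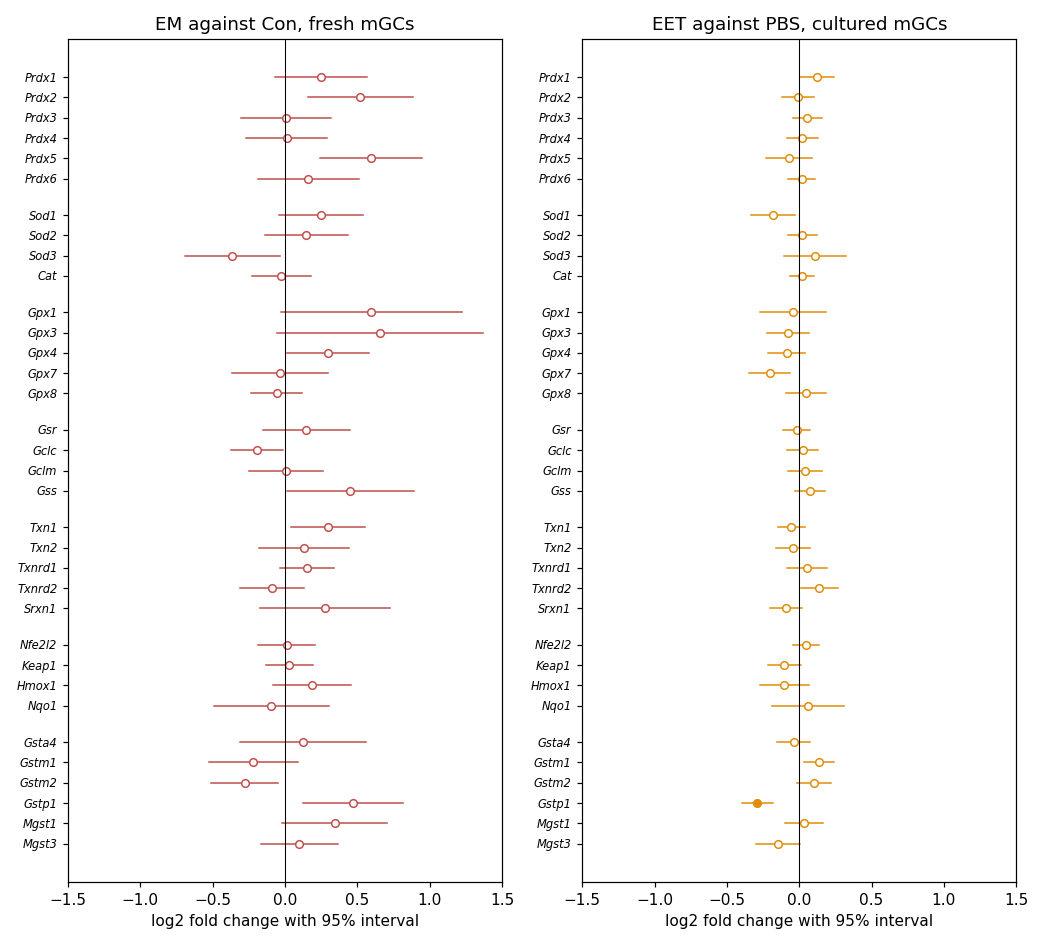
Log2 fold change (x axis, bars for the 95% interval) of each member, ordered by role, for EM against Con in fresh mGCs (left, n = 5 and 5) and EET against PBS in cultured mGCs (right, n = 3 and 3), with filled points for an adjusted p under 0.05. Gstp1 on the right, at -0.29, is the only filled point, and the intervals are wider on the left.

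The remaining members differed little between the EET and PBS groups. Their log2 fold changes ran from -0.15 for Mgst3 to 0.12 for Prdx1, and over all members 18 of 34 were above 0, against 50.4% of all genes. Counted by role with the members above, the log2 fold change was above 0 for 4 of 6 peroxiredoxins, 3 of 4 dismutases and catalase, 1 of 5 glutathione peroxidases, 3 of 4 genes of glutathione synthesis and recycling, 2 of 5 thioredoxin system genes, 2 of 4 NRF2 genes and 3 of 6 glutathione S-transferases.

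Fresh and cultured cells of the EM model were also set side by side. The members' levels differed far more here than in the other comparisons. Culture cannot be told apart from the experiment, the sequencing depth, the mice or the cells that survived isolation. At an adjusted p of 0.05 and at least a 2-fold change, 14 of 34 members were called, against 41.7% of the 17301 genes tested, so the share of members called was near the background. The direction was uneven, with 12 members higher in the PBS group (13.2% of all genes were called higher) and 2 lower (28.5% of all genes). By adjusted p alone, 26 members were called, against 69% of all genes, with 20 higher and 6 lower, against 31.1% and 37.9%. Only 3 were lower in this sense without PBS-1, without PBS-2 or without PBS-3, since Prdx3, Prdx4 and Sod2 were then not called. The median log2 fold change was 0.56 over the members and -0.11 over all genes. With upper-quartile scaling, which moved the median of all genes by -0.25, the median of the members was 0.31, and 16 were higher and 6 lower by adjusted p. The 4 that lost the call were Gpx1, Gpx8, Txn2 and Txnrd2. The share called higher among all called genes was then 32.6% in place of 45.1%.

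Among the NRF2 genes all 4 were higher in culture. Hmox1 (ENSMUSG00000005413, chromosome 8, 75820249 to 75827217, plus strand) went from 53.3, 46.1, 60.6, 68.8 and 51.9 CPM in the EM libraries to 414, 324 and 327 CPM in the PBS libraries, a log2 fold change of 2.63 (SE 0.15, edgeR adjusted p = 7.82e-07). The lowest PBS library was more than 4 times the highest EM library. In the PBS group Hmox1 ranked sixth of the members per kilobase, at 203 ± 29.1 CPM per kb (n = 3), against 32.1 ± 5.00 in the EM group (n = 5).

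Keap1 rose from 40.0 to 46.6 CPM in the EM group to 92.4 to 103 CPM in the PBS group (log2 fold change 1.14, SE 0.09, edgeR adjusted p = 3.88e-06). Its fold change was under the 2-fold limit with upper-quartile scaling (0.89) and when at least 10 reads were required in every library (0.98). Nfe2l2 rose from 95.3 to 124 CPM to 156 to 166 CPM (log2 fold change 0.57, adjusted p = 0.000948), and Nqo1 from 4.29 to 7.40 CPM to 8.92 to 11.4 CPM (log2 fold change 0.83, adjusted p = 0.00879). Groups did not overlap for any of these genes, and all 4 NRF2 genes kept their call by adjusted p under every alternative run.

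All 5 members of the thioredoxin system were higher in culture. Txnrd1 (ENSMUSG00000020250, chromosome 10, 82669785 to 82733546, plus strand), the cytosolic thioredoxin reductase, was at 143, 124, 125, 142 and 133 CPM in the EM group and at 751, 657 and 631 CPM in the PBS group, a log2 fold change of 2.32 (SE 0.11, edgeR adjusted p = 3.31e-07). Srxn1 (ENSMUSG00000032802, chromosome 2, 151947436 to 151953296, plus strand) was at 24.8, 20.7, 31.6, 48.8 and 28.6 CPM against 127, 128 and 118 CPM, a log2 fold change of 1.97 (SE 0.23, adjusted p = 4.92e-05). Both genes hold the core motif in the windows printed above, and neither had overlapping groups. Txn1 (log2 fold change 1.04), the mitochondrial thioredoxin gene Txn2 (0.55) and Txnrd2 (0.38) rose by less. With upper-quartile scaling Txn2 (0.30) and Txnrd2 (0.13) were no longer called, and Txnrd2 also lost its call without EM-mGC-5, without PBS-3, with the replicate block and with at least 10 reads in every library.

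Among the peroxiredoxins 1 rose, 2 fell and 3 did not pass the test. Prdx2 was at 361, 283, 470, 528 and 366 CPM in the EM group and at 1536, 1406 and 1454 CPM in the PBS group, a log2 fold change of 1.83 (SE 0.20, edgeR adjusted p = 3.18e-05). It was the most abundant member in the PBS group per kilobase, at 480 ± 21.4 CPM per kb, although its libraries (461 to 503) overlapped those of Gstm1 (448 to 479 CPM per kb), so that the 2 were not separated. The red blood cell markers in those libraries summed to at most 0.324 CPM, and 6 of 6 were under 1 CPM in each of them. The mitochondrial Prdx3 (log2 fold change -0.59, adjusted p = 0.0224) and Prdx4 of the endoplasmic reticulum (-0.39, adjusted p = 0.0403) fell. Both lost the call when any 1 PBS library was left out, and Prdx4 also without EM-mGC-2, without EM-mGC-3, with DESeq2 and without the filter on low counts. Prdx1, with the core motif in its promoter, was at 416 to 679 CPM in the EM group and 488 to 582 CPM in the PBS group (log2 fold change 0.09, adjusted p = 0.689).

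**Figure D3:**
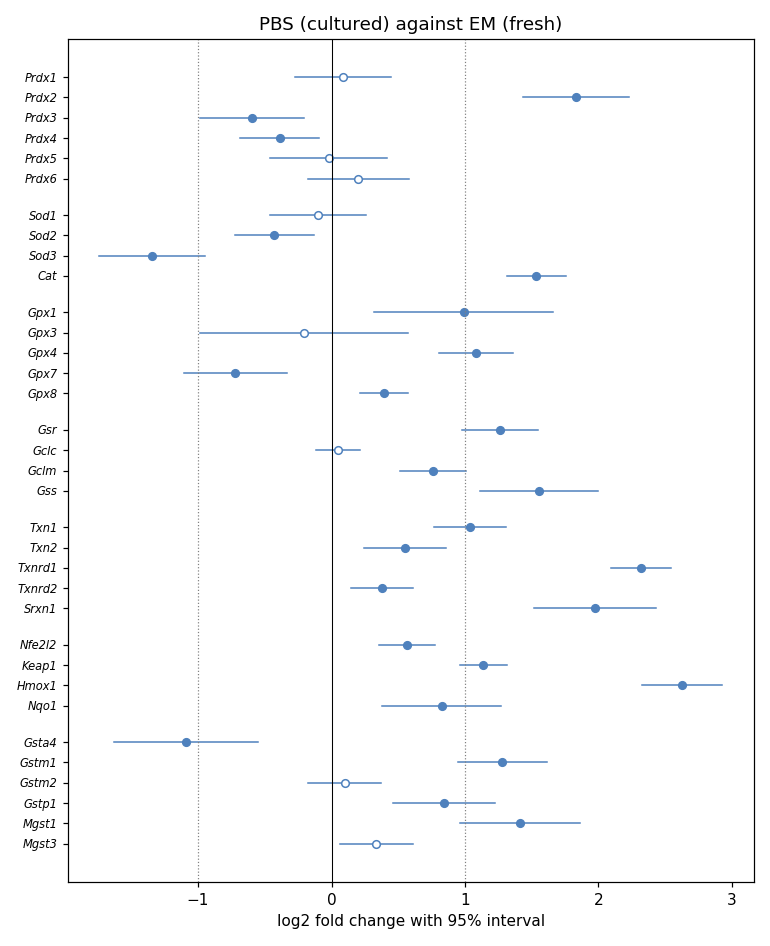
Log2 fold change (x axis, bars for the 95% interval) of each member for cultured PBS libraries (n = 3) against fresh EM libraries (n = 5), ordered by role, with filled points for an adjusted p under 0.05 and dotted lines at a 2-fold change. Hmox1 (2.63), Txnrd1 (2.32) and Srxn1 (1.97) lie farthest to the right, and Sod3 (-1.34) and Gsta4 (-1.09) farthest to the left.

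The dismutases and catalase divided. Cat, the peroxisomal catalase, rose from 74.2 to 93.6 CPM in the EM group to 250 to 253 CPM in the PBS group (log2 fold change 1.53, SE 0.11, edgeR adjusted p = 2.80e-06). Sod3 fell from 31.1, 21.2, 36.3, 31.7 and 23.7 CPM to 10.1, 11.7 and 13.1 CPM (log2 fold change -1.34, SE 0.20, adjusted p = 0.000232). Every PBS library was below the lowest EM library for Sod3. The mitochondrial manganese enzyme gene Sod2 fell (log2 fold change -0.43, adjusted p = 0.0275), a call that was lost without any 1 of the PBS libraries, and Sod1 had a log2 fold change of -0.10 (adjusted p = 0.646).

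For glutathione itself, 3 of 4 genes of synthesis and recycling were higher. Gss was at 24.3, 12.8, 19.5, 31.3 and 20.3 CPM in the EM group and at 63.6, 65.9 and 66.3 CPM in the PBS group, a log2 fold change of 1.56 (SE 0.23, edgeR adjusted p = 0.000191). The glutathione reductase gene Gsr rose from 31.0 to 49.5 CPM to 92.6 to 96.0 CPM (log2 fold change 1.26, adjusted p = 4.14e-05), and Gclm from 34.8 to 50.2 CPM to 67.9 to 74.4 CPM (log2 fold change 0.76, adjusted p = 0.000448). Gclc did not pass the test, at 73.9 to 87.8 CPM in the EM group and 83.7 to 83.9 CPM in the PBS group. Its log2 fold change was 0.05 (SE 0.09, adjusted p = 0.63) and -0.20 with upper-quartile scaling.

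The glutathione peroxidases held 3 that rose, 1 that fell and Gpx3, which did not pass the test. Gpx4 rose from 211 to 293 CPM to 465 to 554 CPM (log2 fold change 1.08, SE 0.14, edgeR adjusted p = 9.72e-05). Gpx1 (log2 fold change 0.99) and Gpx8 (0.39) rose under the 2-fold limit, and Gpx7 fell (-0.72, adjusted p = 0.00797). With upper-quartile scaling neither Gpx1 nor Gpx8 (0.14) was called, and Gpx1 also lost its call without EM-mGC-1, EM-mGC-5, PBS-2 or PBS-3. Gpx1 had only 2.02 to 9.78 CPM over all 16 libraries, and another annotated gene overlaps it on the opposite strand.

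The glutathione S-transferases were divided too. Gstm1 rose from 229 to 361 CPM to 660 to 705 CPM (log2 fold change 1.28, SE 0.17, edgeR adjusted p = 0.000108), and Mgst1, a microsomal transferase with the core motif in its promoter, from 150 to 329 CPM to 544 to 657 CPM (log2 fold change 1.41, adjusted p = 0.000383). Gstp1 rose by 0.84 on the log2 scale. Gsta4, which detoxifies the lipid peroxidation product 4-hydroxynonenal, fell from 148, 291, 193, 103 and 168 CPM to 92.5, 83.5 and 84.3 CPM (log2 fold change -1.09, SE 0.27, adjusted p = 0.00541). The EM libraries of Gsta4 were widely spread, and without EM-mGC-2 its log2 fold change was -0.89. Mgst3 (0.33, adjusted p = 0.0532) and Gstm2 (0.10, adjusted p = 0.544) did not pass.

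Of the 7 members with the core motif, 5 were higher in culture by adjusted p and none was lower. Of the 21 members with a promoter entry and no match, 13 were higher and 4 lower, and of the 6 without an entry 2 were higher and 2 lower. Over all genes tested, 31.1% were higher and 37.9% lower by adjusted p. Shares for all genes with the motif are not given, and no test was run on these counts.

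**Figure D4:**
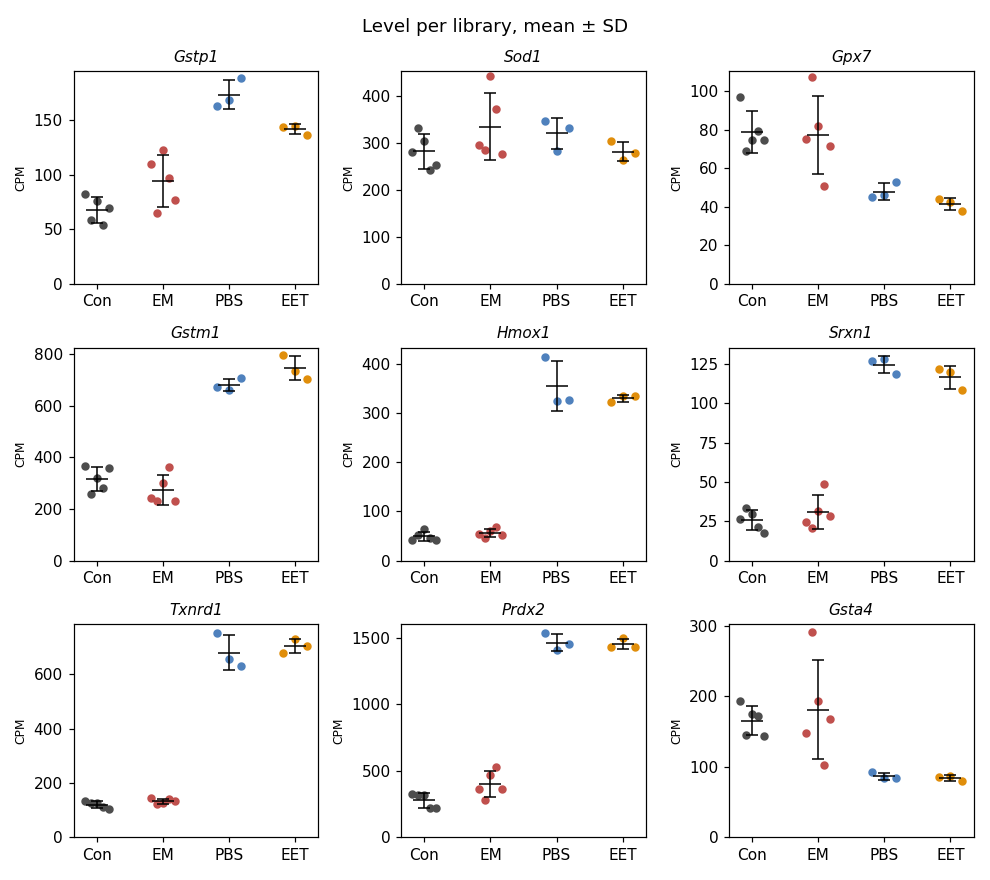
CPM (y axis from 0) of 9 members in each library of the 4 groups (Con and EM, n = 5 each, PBS and EET, n = 3 each), with points for libraries and black bars for mean ± SD. Hmox1, Srxn1, Txnrd1 and Prdx2 are higher in all 6 cultured libraries than in any fresh library, Gsta4 is lower in them, and Gstp1 is lower in the EET group than in the PBS group.

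The makeup of the cells differed between these groups. Summed endothelial markers (6 genes) were at 77.0 to 138 CPM in the EM group and 4.10 to 5.03 CPM in the PBS group, leukocyte markers (6 genes) at 57.4 to 125 CPM and 1.56 to 2.22 CPM, and neutrophil markers at 38.8 to 168 CPM and at most 0.0837 CPM. All 6 leukocyte and all 6 neutrophil markers were under 1 CPM in each PBS library. Of the 8 granulosa markers, Cyp19a1 and Amh were under 1 CPM in each PBS library. Fshr went from 42.2 to 178 CPM in the EM group to 4.69 to 5.65 CPM in the PBS group. Nr5a2 went from 483 to 1215 CPM to 104 to 110 CPM, and Hsd17b1 from 263 to 783 CPM to 118 to 158 CPM. In the PBS group Inha was at 2566 to 3016 CPM, Inhba at 2185 to 2277 CPM and Foxl2 at 140 to 158 CPM. The 8 together summed to 4481 to 15407 CPM in the EM group and 5181 to 5662 CPM in the PBS group. Summed luteal markers (7 genes) went from 12403 to 17715 CPM to 9625 to 9766 CPM. Among them Lhcgr went from 596 to 1031 CPM to at most 0.461 CPM, and only Scarb1 had a higher mean in the PBS group. Summed theca markers (5 genes) went from 523 to 850 CPM to 3615 to 4274 CPM, which were mostly reads of Aldh1a1 (330 to 574 CPM in the EM group and 3560 to 4225 CPM in the PBS group). The steroid enzyme gene Cyp17a1, which defines theca cells, went from 137 to 289 CPM to at most 0.108 CPM, and with Insl3 and Hhip it was among 3 of the 5 theca markers under 1 CPM in each PBS library. Not every sum was lower in culture. Summed smooth muscle markers (5 genes) went from 106 to 274 CPM to 584 to 764 CPM. These were mostly reads of Acta2 (mean 131 CPM in the EM group and 626 CPM in the PBS group). Cnn1 also had a higher mean (5.99 and 10.9 CPM). The means of Myh11 (20.1 and 5.50 CPM), Des (8.46 and 0.689 CPM) and Actg2 (16.2 and 6.99 CPM) were lower. Mitochondrially encoded genes took 8.09% to 21.8% of the reads in the EM group and 1.18% to 1.64% in the PBS group. With mitochondrially encoded genes left out of the counts, 20 members were higher and 6 lower by adjusted p, as in the main fit. The part of these cell types in the members' changes was not tested, nor was what goes with the mitochondrial share.

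A list of 81 further genes of glutathione, NADPH and NRF2 biology gave the wider setting. In EM against Con, 0 of 76 tested were called by edgeR or DESeq2, with 6 at an unadjusted p under 0.05 (against 9.44% of all genes). In EET against PBS, 1 of 75 was called (against 1.22% of all genes), Blvrb, a flavin and biliverdin reductase gene. It was at 39.2, 31.1 and 34.3 CPM with PBS and at 27.0, 23.5 and 20.5 CPM with EET, without overlap (log2 fold change -0.55, SE 0.11, edgeR adjusted p = 0.0245). Its call was lost without PBS-3, EET-2 or EET-3 and in the joint fit of all 16 libraries. On the list 19 genes had an unadjusted p under 0.05 (25.3%, against 12.4% of all genes), 8 higher and 11 lower, and the PBS and EET libraries did not overlap for 21 (28%, against 16.6%), 8 higher and 13 lower. In PBS against EM, 33 of 76 passed the adjusted p and the 2-fold limit (43.4%, near the 41.7% of all genes), 22 higher and 11 lower, where 13.2% and 28.5% of all genes were called.

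The largest rises on that list were those of Chac1, which degrades glutathione (0.985 CPM in the EM group and 21.5 CPM in the PBS group, log2 fold change 4.41), Osgin1 (16.3 and 208 CPM, 3.63) and Gsta3 (6.18 and 30.4 CPM, 2.26). The largest falls were those of Gsta2 (3.44 and 0.397 CPM, -3.14), Gstm6 (14.9 and 1.88 CPM, -3.02) and Bach2 (4.93 and 0.780 CPM, -2.68). All 6 passed the test, with edgeR adjusted p-values from 2.65e-06 to 0.000247. Slc7a11, the cystine carrier that feeds glutathione synthesis, was not called in any comparison. It was at 2.43 to 14.6 CPM in the EM group and 4.21 to 6.50 CPM in the PBS group (log2 fold change -0.68, SE 0.46, adjusted p = 0.21).

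The fresh and the cultured experiment share no library, so the members' fold changes in EM against Con and in EET against PBS can be set beside each other. This was done after the values had been seen. The sign was opposite for 23 of 34 members (67.6%), against 48.2% of the 14382 genes tested in both. Of these, 15 were above 0 in EM against Con and below 0 in EET against PBS, Gstp1 (0.47 and -0.29) and Sod1 (0.25 and -0.18) among them, and 8 the reverse, among them Gstm1 (-0.22 and 0.14), Gstm2 (-0.28 and 0.10) and Sod3 (-0.36 and 0.11). Across the 34 genes, which are not independent, Pearson's r was -0.46 and Spearman's rho -0.50, against 0.08 and 0.06 over all genes. With each library left out in turn, r ran from -0.52 to -0.37 and the number of opposite signs from 19 to 26. Gstp1 alone among these fold changes passed a test, in culture only, and within each experiment the genes share libraries and depth.

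**Figure D5:**
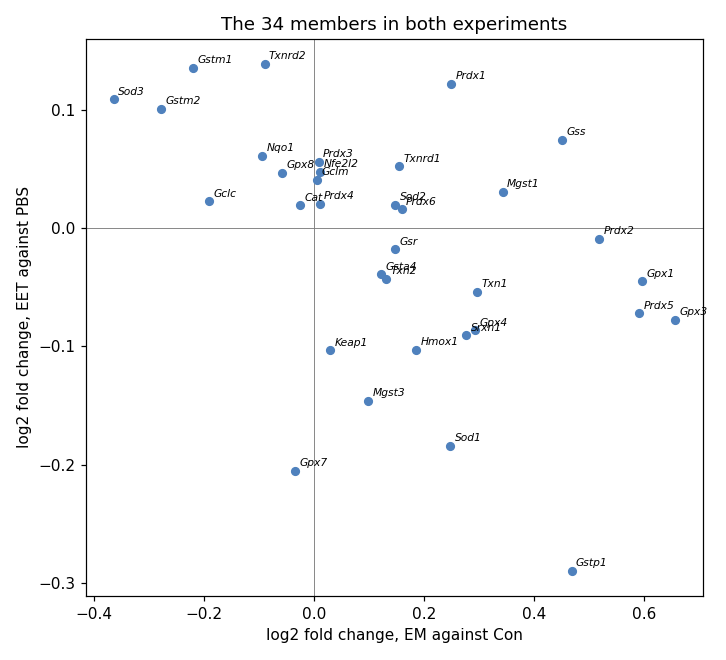
Log2 fold change of the 34 members in EM against Con (x axis) and in EET against PBS (y axis), each point a gene. Gstp1 (0.47, -0.29) lies at the lower right, Gstm1, Gstm2 and Sod3 at the upper left, and 23 of the 34 points fall in the upper left or lower right quadrant.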

How the data were processed

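Poly(A) RNA of 16 mGC libraries was sequenced as 150 bp read pairs after a stranded preparation. The authors deposited raw read counts per Ensembl gene. The submitters' notes name fastp, HISAT2, StringTie and the GRCm39 build, and the counts are from featureCounts. Versions, the strand setting and the handling of reads matching several genes are not given in the sources used here, so the 12 members overlapped by another gene (10 of them on the opposite strand) are uncertain.

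Counts were analysed with edgeR 4.0.16 in R 4.3.3 (filterByExpr by group, TMM, quasi-likelihood test, Benjamini-Hochberg adjustment over all genes, adjusted p of 0.05), each comparison in its own fit. PBS against EM also needed an absolute log2 fold change of 1. Intervals (95%) are ± 1.96 SE, a multiple that is too small for groups of 3 or 5 libraries. Exon lengths, merged over the annotated transcripts of a gene, were matched for 52029 of 57010 genes and all 34 members. The steps were tested on simulated data, where the share of false calls for EET against PBS was above the nominal level. Members and lists were chosen with earlier results of these data known. Values in every library are given for members called in either main comparison, the 5 with the smallest p in each, the 5 that rose and up to 5 that fell most in culture, Nfe2l2, Keap1, Hmox1, Nqo1, Srxn1, Gclc and Gclm, with the most abundant gene of each role. Other pathway genes are named if among the 3 largest called changes each way, besides Slc7a11. Alternatives were DESeq2 1.42.0, other scalings and filters, a replicate block, a joint fit and leaving out each library. Unused sample columns: 0.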

Additional observations from a re-analysis of the deposited data

Results flagged for a closer look

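In 4 of the 68 groups of 5 fresh libraries (34 members in the Con and in the EM group), 1 library stood apart from the others by Dixon's criterion (a gap above 0.71 of the range). Chance gives about 1 in 20. Gpx8 was at 45.8 CPM in Con-mGC-1, next to 39.3 CPM in the nearest library. Txn2 was at 111 CPM in Con-mGC-1, next to 77.1 CPM. Gpx4 was at 293 CPM in EM-mGC-3, next to 230 CPM, and Txn2 at 120 CPM in EM-mGC-3, next to 86.7 CPM. Each of these was the highest of its group, and they came from 2 libraries, of which EM-mGC-3 also had the highest share of mitochondrial reads (21.8%). None of these genes was called in any comparison of fresh cells.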

How the results depend on the processing

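In EM against Con, the count of members and of other pathway genes called was 0 under all 19 alternatives. In EET against PBS, the 1 member called became 2 without the filter on low counts, 0 in a joint fit of all 16 libraries and 0 with a 2-fold limit, and ran from 0 to 2 with a library left out. The 1 other pathway gene called became 2 with DESeq2, 6 without the filter, 2 with the replicate number as a block, 0 in the joint fit and 0 with the 2-fold limit, and ran from 0 to 3 with a library left out. In PBS against EM, dropping the 2-fold limit gave 26 members and 52 other genes. For single genes, 550 of 576 values kept their direction and call, 16 reversed, 8 lost the call and 2 gained it. Gclc in PBS against EM was -0.20 with upper-quartile scaling and -0.11 with at least 10 reads in every library. With a library left out, EM against Con ran from -0.056 to 0.044 for Nfe2l2, from -0.23 to 0.00080 for Nqo1 and from -0.074 to 0.12 for Gclm, and EET against PBS ran from -0.17 to 0.034 for Hmox1, from -0.010 to 0.19 for Nqo1, from -0.017 to 0.059 for Gclc and from -0.0043 to 0.084 for Gclm. The cause was not tested.

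The replicate numbers were not shown to pair the libraries. Same-numbered libraries deviated from their group means with correlations of 0.06, 0.10 and -0.02 in culture and from -0.25 to 0.23 in fresh cells. With the replicate block, 0 members were called in EM against Con, 1 in EET against PBS and 15 in PBS against EM. Between 3 and 5 libraries a group limit what can be seen, and a share of reads under about 10 CPM, as for Gpx1 and Nqo1, gives wide intervals.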
